A study of Arabidopsis thaliana with 8 samples.

Results

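The chloroplast genome of Arabidopsis gave 134 of the 37361 gene rows counted in each of 8 RNA-seq libraries of 12-day-old Col-0 seedlings, and these 134 rows are described here. They were taken as every row whose identifier starts with ATCG, whatever its level. The libraries were 2 each of WT, of fry1-6, of fry1-6 rdr6-11 and of fry1-6 rdr1-1. All 3 mutant genotypes carried the T-DNA insertion fry1-6 (SALK_020882) in FRY1, which encodes a phosphatase acting on the nucleotide by-product of sulfation, PAP, and each double mutant added a mutation in 1 RNA-dependent RNA polymerase gene, rdr6-11 (CS24285) in RDR6 or rdr1-1 (SAIL_672F11) in RDR1. The genotype entry of the libraries titled as the rdr1-1 double mutant repeats the rdr6-11 one, and the titles were followed. Each mutant gene was studied through a single allele. The labels and the methods also differ on day length, temperature and library kit. Nothing states whether the 2 libraries of a genotype came from separate cultures, so a test measures only the spread between them. The double mutant libraries cannot be told apart from a batch of their own. In whole seedlings, a change in the number of green cells and one in plastid RNA per cell cannot be told apart either.

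The plastid genome of a land plant encodes core subunits of both photosystems, the cytochrome b6f complex, the ATP synthase and the NDH complex, which carries cyclic electron flow, together with part of the plastid ribosome, its rRNAs and a set of tRNAs. Its genes lie in clusters that are transcribed as long polycistronic RNAs and then cut, spliced and edited. A bacterial-type RNA polymerase, whose core is the product of rpoA, rpoB, rpoC1 and rpoC2 and whose sigma factors are nuclear gene products, transcribes most photosynthesis genes. A phage-type polymerase encoded in the nucleus, RPOTp, transcribes many of the housekeeping genes, among them the rpoB cluster, accD and clpP. The 3′ ends of plastid RNAs are set by exonucleases that stop at stem-loops or bound proteins, and poly(A) tails in plastids mark RNA for decay.

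Library totals ran from 15069329 to 26285519 counts. Plastid rows took 5963 to 26132 counts (0.0342 to 0.173%) in the 4 WT and fry1-6 libraries, and 406784 to 652786 counts (2.29 to 2.80%) in the 4 double mutant libraries. The Wilson 95% interval was 0.0333 to 0.0350% for the lowest share and 2.80 to 2.81% for the highest, for counting error only. Mitochondrial rows did not follow this split, at 0.00875 to 0.148% in WT and fry1-6 and 0.0242 to 0.0283% in the double mutants. All 6 leaf markers were counted in every library, with a summed level of 29582 to 48418 CPM (TMM-scaled CPM, each library brought to the same effective total) in WT and fry1-6 and 21836 to 59286 CPM in the double mutants. The 6 root markers summed to 154 to 349 CPM and 329.9 to 424 CPM. Of the leaf markers, 3 fell in fry1-6 rdr6-11 and 1 rose in fry1-6 rdr1-1 against WT, and none of the 5 tested root markers was called. Across all genes 7.94% fell in fry1-6 rdr6-11 and 5.91% rose in fry1-6 rdr1-1. The part of this tissue signal in the plastid results was not tested. Every gene was followed on a pair of scales, per library total and relative to the library's own plastid total.

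The following 7 short genes, printed from the RefSeq TAIR10.1 genome, 5′ to 3′ on their coding strand, are printed because the results return to them. The levels of the first 4 were higher in every double mutant library than in any other, as were those of petN and psaI. Of these 7, trnH rose and petN, psaI and petG fell within the plastid total in both double mutants, while psbM and rpl32 did not pass. trnT did not pass there in both. trnH, trnT and psaI entered the test only through the double mutants, where they were high, and trnH had at most 1 count in any WT or fry1-6 library. Capitals mark runs of 5 or more A.
trnH: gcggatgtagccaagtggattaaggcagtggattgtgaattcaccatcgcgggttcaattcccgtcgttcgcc
trnT: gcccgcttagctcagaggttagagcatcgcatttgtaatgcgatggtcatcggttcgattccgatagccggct
psbM: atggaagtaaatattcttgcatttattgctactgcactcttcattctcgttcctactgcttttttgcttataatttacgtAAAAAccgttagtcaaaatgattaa
rpl32: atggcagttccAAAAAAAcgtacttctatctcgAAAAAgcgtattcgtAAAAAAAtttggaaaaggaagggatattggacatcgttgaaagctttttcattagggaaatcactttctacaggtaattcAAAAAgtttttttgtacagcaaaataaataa
petN: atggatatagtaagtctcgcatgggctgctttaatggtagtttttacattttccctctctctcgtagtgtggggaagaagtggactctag
psaI: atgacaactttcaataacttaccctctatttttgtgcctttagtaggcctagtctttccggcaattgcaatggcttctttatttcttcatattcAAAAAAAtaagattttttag
petG: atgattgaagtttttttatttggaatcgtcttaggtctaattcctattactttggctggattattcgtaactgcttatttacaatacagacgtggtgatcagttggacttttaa
The first is the histidine tRNA gene trnH (chrPltd:4-76, minus strand) and the second the threonine tRNA gene trnT (ATCG00390, chrPltd:46213-46285, minus strand). psbM (chrPltd:28707-28811, minus strand) encodes a small subunit of photosystem II and rpl32 (chrPltd:113449-113607, plus strand) a protein of the large ribosomal subunit. petN (chrPltd:28089-28178, plus strand) and petG (chrPltd:65998-66111, plus strand) encode small subunits of the cytochrome b6f complex and psaI (chrPltd:59247-59360, plus strand) one of photosystem I. rpl32, which did not pass within the plastid total, had 4 runs of A and an A content of 39.6%. psaI, which fell within the plastid total, had 1 of 7 bases, and neither tRNA gene had any.

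Of the 134 members, 111 had enough counts to be tested, 23 did not, and 11 of those had no count in any library. Only 79 of the 111 would have passed on the WT and fry1-6 libraries alone, and the other 32 passed through the double mutants, where they were high, so that no count over the 111 stands for all members. The inverted repeat, which the genome holds in 2 identical copies of 26264 bases, holds 36 members, of which 18 had at most 3 counts in every library. ycf2, among the longest plastid genes, had at most 3 over both copies. The repeat's reads can be placed in either copy, so the values of its rRNA, tRNA and protein-coding genes are uncertain. ATCG09900, which the sources leave without a name, rose per library total in both double mutants against WT. It was among the 32 that passed only through the double mutants. Counting by strand is not stated and neither named kit marks strand, so RNA from the opposite strand of a gene is counted with it.

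Per library total, no plastid gene passed the test in fry1-6 against WT (edgeR quasi-likelihood test, adjusted p under 0.05 over 22744 genes). Across all genes 5.42% were called in that comparison. At an unadjusted p under 0.05 there were 3 plastid genes, and DESeq2 called 0. The double mutants differed from both. Against WT, 70 members rose and 6 fell in fry1-6 rdr6-11, where 10.9% of all genes rose and 7.94% fell, and 68 rose and 2 fell in fry1-6 rdr1-1, where 5.91% rose and 2.07% fell. The median log2 fold change over the 111 tested members was 3.61 and 3.93, beside 0.04 and 0.05 over all genes. These 111 include the 32 that passed only through the double mutants, where they were high, so this median depends partly on the filter. Of the 79 members that passed on WT and fry1-6 alone, 40 and 40 rose. Against fry1-6, 63 rose and 2 fell in fry1-6 rdr6-11 (all genes 1.83% and 2.93%), and 42 rose and 0 fell in fry1-6 rdr1-1 (all genes 0.207% and 0.0572%), where DESeq2 called 73 and 4. Of the 79, 36 and 28 rose against fry1-6. Comparisons against the same control share its libraries and are not independent. Against WT, 44 or 43 were called, all of them higher, without fry1-6 rdr6-11 replicate 1 or 2. There were 37 for fry1-6 rdr1-1 without its replicate 1, and 19 to 43 for fry1-6 rdr6-11 and 19 to 26 for fry1-6 rdr1-1 against fry1-6 without any 1 library of fry1-6 or of a double mutant. Without either WT library, the calls against fry1-6 were 81 and 54. Without WT replicate 2 and fry1-6 replicate 2, the pair with the fewest plastid counts, 71 rose and 20 fell in fry1-6 rdr6-11 against WT and 70 rose and 13 fell in fry1-6 rdr1-1. Between the double mutants no member passed by edgeR or DESeq2, with 4 at an unadjusted p under 0.05 (1.1% of all genes were called).

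The levels of 82 tested members were higher in each of the 4 double mutant libraries than in any of the other 4, where 8.35% of all genes showed this. All 32 that passed the filter only through the double mutants are among them, and of the 79 others 50 were higher in this way. Another 21 overlapped. In 8 of the 111 tested rows every double mutant library was lower than each of the others. This is close to the 7.59% of all genes that showed it, so their number is not an excess. These 8 were psbA, psaA, psaB, rbcL and both copies of rrn16 and rrn23, and the copies are not separate genes. The order of the genes changed along with their sum. Spearman's rho between the plastid profiles of 2 libraries was 0.99 to 1.00 among the double mutants, 0.93 to 0.98 among WT and fry1-6, and 0.55 to 0.70 between these sets, a description over 134 rows that share depth and gene length.

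**Figure D1:**
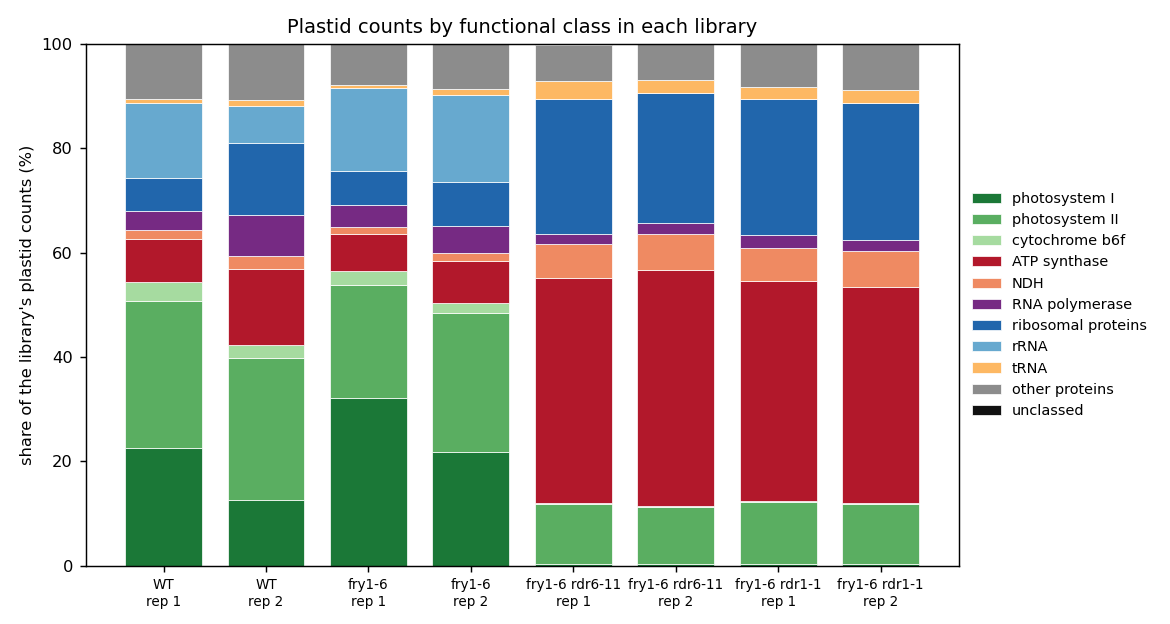
Stacked bars give the share of each library's plastid counts (%) taken by each functional class, for the 8 libraries. Photosystem I and rRNA genes took 12.7 to 32.2% and 7.01 to 16.6% in WT and fry1-6 and 0.246 to 0.299% and 0.0193 to 0.0322% in the double mutants, where the ATP synthase took 41.5 to 45.3%.

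Relative to the plastid total, again no member passed in fry1-6 against WT (8 at an unadjusted p under 0.05, 0 by DESeq2, 5.44% of all genes called), although 5 were lower and 1 higher without WT replicate 1 and 1 was lower without fry1-6 replicate 1. In fry1-6 rdr6-11 against WT 27 members rose and 46 fell. Of the 79 that passed on WT and fry1-6 alone, 18 rose and 45 fell there. In that fit 10.8% of all genes rose and 8.16% fell. In fry1-6 rdr1-1 against WT 21 rose and 40 fell, beside 5.71% and 2.25%. The calls among the 79 were 17 higher and 39 lower for this genotype. Both double mutants shared 21 of the higher and 40 of the lower calls. These shared higher calls include members, trnH and rps15 among them, that passed the filter only through the double mutants, where they were high. Against fry1-6 the counts were 22 higher and 38 lower (1.64% and 3.1% of all genes) and 9 higher and 24 lower (0.0528% and 0.141%). Among the 79 they were 16 higher and 38 lower and 6 higher and 24 lower. This split depends on what the plastid total is taken to be. With TMM factors computed within the plastid genes it was 36 higher and 34 lower and 32 higher and 29 lower against WT, and 28 and 25 and 23 and 14 against fry1-6. Against WT it was 30 higher and 41 lower, and 25 and 38, with atpB left out of the total. Without fry1-6 rdr6-11 replicate 1 or 2 the calls against WT were 41 and 36, and without fry1-6 rdr1-1 replicate 1 or 2 they were 28 and 40. Against fry1-6, leaving out any 1 library of fry1-6 or of the double mutant compared gave 4 to 29 calls for fry1-6 rdr6-11 and 8 to 17 for fry1-6 rdr1-1. Of the 67 members that rose per library total in both double mutants against WT, 21 also rose within the plastid total, 44 did not pass there in both, and 2, psaI and cemA, fell there. These 67 include members, psaI among them, that passed the filter only through the double mutants. Only both copies of rrn16 fell in both double mutants on both scales.

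**Figure D2:**
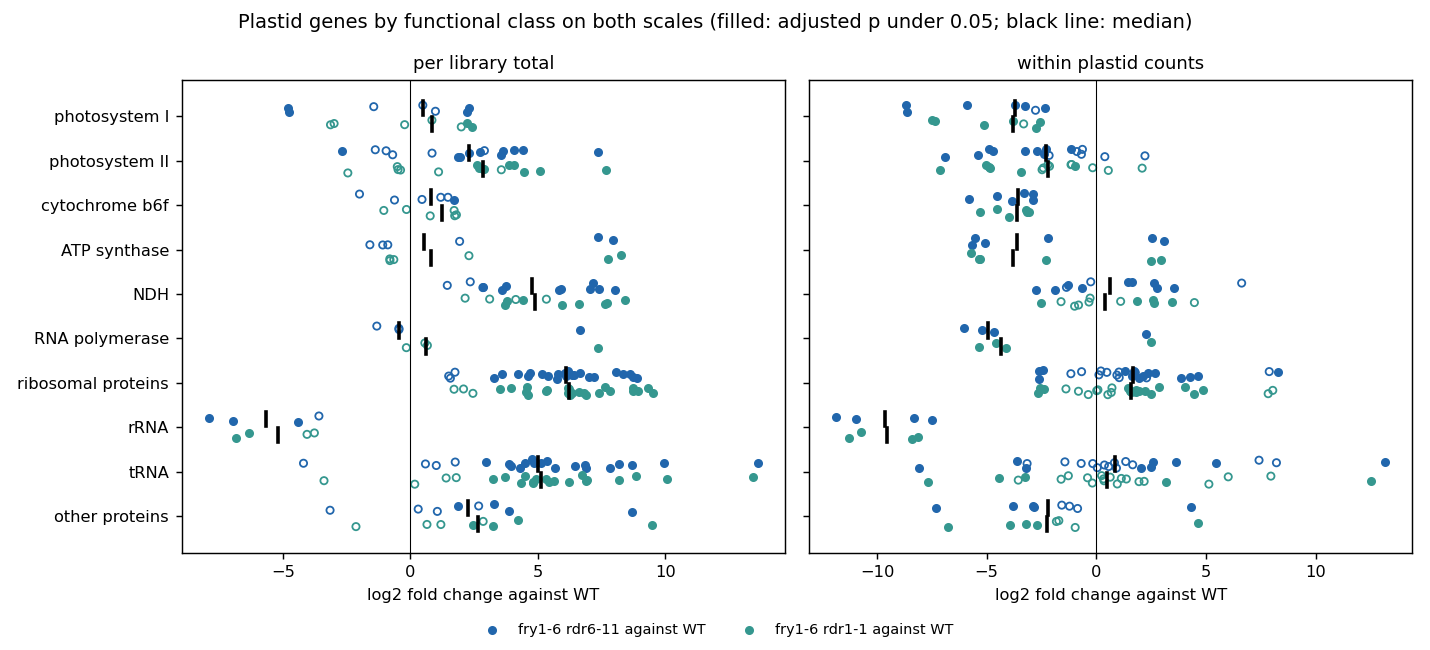
Each point is 1 tested plastid gene, its log2 fold change against WT on the x axis and its functional class on the y axis, per library total (left) and relative to the plastid total (right), with filled points past the adjusted p of 0.05 and black lines at class medians. Ribosomal protein genes have medians of 6.09 and 6.24 per library total, and the rRNA genes lie below 0 on both scales. Only 16 of these 26 ribosomal protein rows would have passed the filter on the WT and fry1-6 libraries alone, so their medians depend partly on the filter.

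Among protein-coding genes, psaA and psaB of photosystem I had the lowest changes within the plastid total. They encode the pair of large proteins that hold the reaction centre. psaB had 199 and 18.3 CPM in WT, 277 and 51.1 CPM in fry1-6, 4.2 and 3.68 CPM in fry1-6 rdr6-11 and 17.4 and 10.01 CPM in fry1-6 rdr1-1. psaA had 192 and 16.5 CPM in WT, 269.6 and 46 CPM in fry1-6, 4.08 and 3.54 CPM in fry1-6 rdr6-11 and 15.6 and 8.19 CPM in fry1-6 rdr1-1. For both genes each double mutant library lay below each WT and fry1-6 library, although the lowest WT value and the highest fry1-6 rdr1-1 value were close. The mean level was 27.6-fold lower for psaB in fry1-6 rdr6-11 than in WT and 7.93-fold lower in fry1-6 rdr1-1. Per library total the log2 fold change of psaB was -4.78 ± 1.29 (SE, adjusted p = 0.0447) and -2.99 ± 1.17 (SE, adjusted p = 0.166), and that of psaA -4.77 ± 1.33 (SE, adjusted p = 0.0496) and -3.13 ± 1.22 (SE, adjusted p = 0.164). Both fell, close to the threshold, in fry1-6 rdr6-11 and did not pass in fry1-6 rdr1-1, and the difference between the double mutants was -1.79 ± 1.16 (SE, adjusted p = 0.496) for psaB. Neither passed without WT replicate 1, where the log2 fold changes were -2.22 for psaB and -2.12 for psaA, or without any 1 double mutant library. All 6 lower calls per library total were lost without either fry1-6 rdr6-11 library. Within the plastid total psaB fell in both, with log2 fold changes of -8.69 ± 0.56 (SE, adjusted p = 0.000863) and -7.38 ± 0.53 (SE, adjusted p = 0.00147). Of the 7 tested members of this class, 6 fell within the plastid total in each double mutant against WT and none rose, and psaJ, a small subunit, did not pass. psaI passed the filter only through the double mutants, and of the 6 others 5 fell in each. Among the genes that fell, psaI, psaC and ycf3 had log2 fold changes per library total of 2.22, 0.99 and 0.49 in fry1-6 rdr6-11, and psaI rose. ycf3 and ycf4 encode assembly factors of the complex.

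Photosystem II genes went both ways. psbA, which encodes the D1 protein of the reaction centre and was the member with the most counts in both WT libraries, had 215 and 44.2 CPM in WT, 102 and 50.3 CPM in fry1-6, 21.5 and 19.2 CPM in fry1-6 rdr6-11 and 22.6 and 24.8 CPM in fry1-6 rdr1-1. It fell within the plastid total, with log2 fold changes of -6.90 ± 0.33 (SE, adjusted p = 0.000541) in fry1-6 rdr6-11 and -7.12 ± 0.34 (SE, adjusted p = 0.000686) in fry1-6 rdr1-1, and per library total with -2.67 ± 0.71 (SE, adjusted p = 0.043) in the first. psbD, which encodes the D2 partner of D1, was among the high genes with 63.6 and 8.76 CPM in WT, 66.2 and 18.4 CPM in fry1-6, 812 and 756 CPM in fry1-6 rdr6-11 and 1371 and 1059 CPM in fry1-6 rdr1-1. It rose per library total, with log2 fold changes of 4.44 ± 1.01 (SE, adjusted p = 0.0278) and 5.07 ± 1.04 (SE, adjusted p = 0.0346), and its change within the plastid total did not pass, at 0.39 and 0.55. psbM reached 959 and 681 CPM and 1054 and 991 CPM in the double mutants from 4.15 and 5.88 CPM in WT and 3.74 and 3.77 CPM in fry1-6, which is 164-fold and 204-fold above WT with no overlap. Its log2 fold change per library total was 7.35 ± 0.32 (SE, adjusted p = 0.000309) and 7.67 ± 0.32 (SE, adjusted p = 0.00053). Within the plastid total psbM did not pass, at 2.22 and 2.09. Over the class 9 of 15 members rose per library total in each double mutant, 1 and 0 fell, and within the plastid total 9 and 6 fell and none rose. Those that fell in both were psbA, psbC, psbB, psbT, psbN and psbH, which include the genes of both core antenna proteins.

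**Figure D3:**
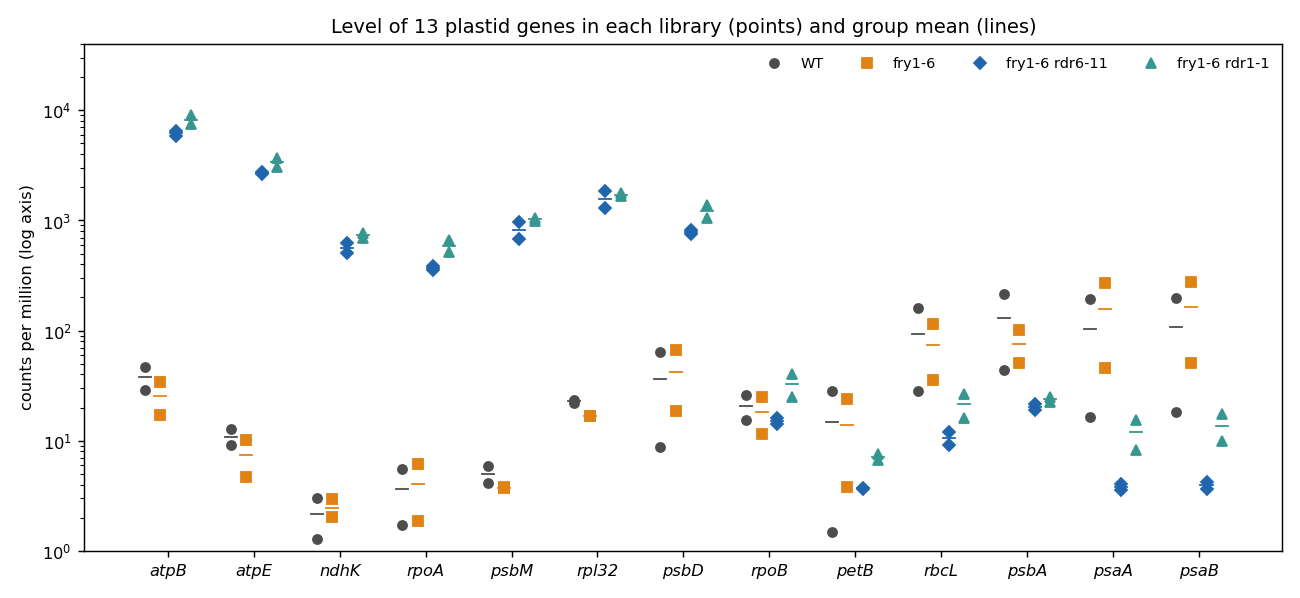
Points give CPM (log axis) of 13 plastid genes in each of the 8 libraries, and short lines the mean of the 2 libraries of a genotype. atpB, atpE, ndhK, rpoA, psbM, rpl32 and psbD were higher in all 4 double mutant libraries, while rbcL, psbA, psaA and psaB were lower in all 4, and rpoB and petB overlapped.

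The cytochrome b6f genes moved together within the plastid total. All 6 fell in both double mutants against WT, with log2 fold changes of -5.80 to -2.88 and -5.32 to -3.08, and their summed share of plastid counts went from 1.94 to 3.64% to 0.17 to 0.198%. Per library total only petN passed, at 1.72 ± 0.43 (SE, adjusted p = 0.037) in fry1-6 rdr6-11. petB, the gene of cytochrome b6, had 28 and 1.47 CPM in WT, 24 and 3.77 CPM in fry1-6, 3.65 and 3.72 CPM in fry1-6 rdr6-11 and 7.64 and 6.66 CPM in fry1-6 rdr1-1, and its 2 WT libraries differed more than the groups did. petA, the gene of cytochrome f, had 10.4 and 3.74 CPM in WT, 5.14 and 2.6 CPM in fry1-6, 17.8 and 14.4 CPM in fry1-6 rdr6-11 and 23.1 and 23.9 CPM in fry1-6 rdr1-1, higher in each double mutant library than in the others without passing per library total, at 1.20 ± 0.49 (SE, adjusted p = 0.131) and 1.74 ± 0.49 (SE, adjusted p = 0.0795).

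The ATP synthase genes split by location. atpB and atpE encode the beta and epsilon subunits of the catalytic part and overlap by their ends at chrPltd:52265-54156 on the minus strand. atpB had 47 and 28.6 CPM in WT, 34.1 and 17.2 CPM in fry1-6, 6535 and 5786 CPM in fry1-6 rdr6-11 and 9007 and 7448 CPM in fry1-6 rdr1-1. atpE had 12.7 and 9.13 CPM in WT, 10.1 and 4.68 CPM in fry1-6, 2775 and 2639 CPM in fry1-6 rdr6-11 and 3693 and 3074 CPM in fry1-6 rdr1-1. Both were far above every WT and fry1-6 library in all 4 double mutant libraries: atpB was 163-fold and 217-fold and atpE 248-fold and 311-fold above WT. Per library total atpB rose, with log2 fold changes of 7.35 ± 0.50 (SE, adjusted p = 0.00105) and 7.76 ± 0.51 (SE, adjusted p = 0.00109). Within the plastid total it rose by log2 fold changes of 2.56 ± 0.53 (SE, adjusted p = 0.0204) and 2.51 ± 0.53 (SE, adjusted p = 0.0365), and it took 29.2 to 31.0% of the plastid counts in the double mutants. The other 4 genes, atpI, atpH, atpF and atpA, form a separate cluster with rps2 and fell within the plastid total in both, with log2 fold changes of -5.65 ± 0.33 (SE, adjusted p = 0.000699) and -5.35 ± 0.32 (SE, adjusted p = 0.00093) for atpA, the alpha subunit that alternates with beta in the enzyme. atpA had 43 and 5.94 CPM in WT, 39.6 and 8.25 CPM in fry1-6, 8.75 and 7.53 CPM in fry1-6 rdr6-11 and 17.4 and 10.6 CPM in fry1-6 rdr1-1, groups that overlapped, and none of the 4 passed per library total. Per kilobase, the mean level of atpB was 25.3 CPM in WT and 4115 CPM in fry1-6 rdr6-11, and that of atpA 16.1 CPM and 5.34 CPM, so the ratio of these subunit RNAs to each other was not kept.

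The neighbour of atpB on the other side is rbcL, the gene of the large subunit of Rubisco, which starts at position 54958 on the plus strand and is transcribed away from it. rbcL had 159 and 28.1 CPM in WT, 114 and 35.3 CPM in fry1-6, 11.9 and 9.19 CPM in fry1-6 rdr6-11 and 26.8 and 16 CPM in fry1-6 rdr1-1. Each double mutant library was lower than each other library, while atpB was higher in each. rbcL fell within the plastid total, with log2 fold changes of -7.31 ± 0.25 (SE, adjusted p = 0.000468) and -6.77 ± 0.25 (SE, adjusted p = 0.000686). Per library total it did not pass, at -3.15 ± 0.90 (SE, adjusted p = 0.0524) and -2.13 ± 0.86 (SE, adjusted p = 0.174). Next to rbcL, accD, which encodes a subunit of acetyl-CoA carboxylase, had 3.29 and 0.429 CPM in WT, 3.27 and 0.844 CPM in fry1-6, 2.89 and 1.65 CPM in fry1-6 rdr6-11 and 3.24 and 2.54 CPM in fry1-6 rdr1-1. It overlapped between the groups and fell within the plastid total, at -3.82 and -3.92.

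NDH genes differed by cluster as well. ndhC, ndhK and ndhJ, which lie together beside atpE, all rose on both scales in both double mutants against WT. ndhK had 3.0 and 1.29 CPM in WT, 2.94 and 2.01 CPM in fry1-6, 619 and 503 CPM in fry1-6 rdr6-11 and 767 and 694 CPM in fry1-6 rdr1-1, 262-fold and 340.4-fold above WT, with a change within the plastid total of 3.53 ± 0.48 (SE, adjusted p = 0.00618) and 3.46 ± 0.48 (SE, adjusted p = 0.0108). The genes of the second cluster were followed in the direction of transcription, starting from ycf1 (ATCG01130), which encodes a large protein of the inner envelope that takes part in protein import, and rps15. Within the plastid total the log2 fold change in fry1-6 rdr6-11 against WT was 4.32 for ycf1, 4.65 for rps15, 1.61 for ndhH, -0.65 for ndhA, -1.27 for ndhI, -1.90 for ndhG, -1.36 for ndhE, -3.25 for psaC and -2.73 for ndhD. The same genes had 4.66, 4.84, 1.86, -0.28, -0.81, -1.61, -0.99, -2.73 and -2.52 in fry1-6 rdr1-1. The values were high at the upstream end and low at psaC and ndhD. That of rps15 rests on 3 and 1 counts in WT, and rps15 passed the filter only through the double mutants. In both double mutants the first 3 genes rose and psaC and ndhD fell, and in fry1-6 rdr6-11 ndhA, ndhI and ndhG fell too. ycf1 itself had 4.79 and 1.41 CPM in WT, 3.14 and 0.974 CPM in fry1-6, 1394 and 1150.2 CPM in fry1-6 rdr6-11 and 2307 and 2109.6 CPM in fry1-6 rdr1-1.

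Many ribosomal protein genes rose in both double mutants. Per library total 23 of 26 rose and none fell in each double mutant against WT, but 10 of the 26 passed the filter only through the double mutants, and of the other 16 the number that rose was 13 in each. Within the plastid total 12 and 11 of the 26 rose and 3 fell, and 9 of the 16 rose in each. rpl32 had 22.2 and 23.4 CPM in WT, 16.9 and 16.8 CPM in fry1-6, 1854 and 1288 CPM in fry1-6 rdr6-11 and 1759 and 1665 CPM in fry1-6 rdr1-1, with log2 fold changes per library total of 6.10 ± 0.27 (SE, adjusted p = 0.000309) and 6.23 ± 0.27 (SE, adjusted p = 0.00053) and values within the plastid total that did not pass, at 1.03 and 0.71. Per kilobase it was the most abundant member in all 4 genotypes, at 144 CPM in WT, 106 CPM in fry1-6, 9879 CPM in fry1-6 rdr6-11 and 10769 CPM in fry1-6 rdr1-1. The large rpl23 cluster rose as a block: all 11 tested genes rose per library total, and 10 of them within the plastid total, in both double mutants. For 8 of them, in the order of transcription after rpl23, the changes within the plastid total in fry1-6 rdr6-11 were 4.26 for rpl2, 3.84 for rps19, 2.34 for rpl22, 2.67 for rps3, 1.94 for rpl16, 1.61 for rpl14, 1.73 for rpl36 and 2.28 for rpoA. Among these 8, the upstream genes rpl2 and rps19 had the higher values, but that of rpl2 rests on few counts. rpl2 had 4 counts in each WT library and lies in the repeat. Both rpl2 and rpl23 passed the filter only through the double mutants. rpl16 had 10.4 and 5.82 CPM in WT, 8.62 and 3.77 CPM in fry1-6, 918 and 723 CPM in fry1-6 rdr6-11 and 1474 and 1256 CPM in fry1-6 rdr1-1. rpl23 itself had no count in WT or fry1-6 in this copy and 57 and 39 counts in fry1-6 rdr6-11, at least 10.6-fold above WT against a floor of 3 counts per library, and it lies in the repeat. The first copy of rpl2 (ATCG00830) had 2512 and 2359 counts in fry1-6 rdr6-11 and the other copy (ATCG01310) 147 and 134.

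The 4 genes of the plastid RNA polymerase did not move together. rpoA, the last gene of the rpl23 cluster, had 5.58 and 1.72 CPM in WT, 6.21 and 1.88 CPM in fry1-6, 383 and 355 CPM in fry1-6 rdr6-11 and 664 and 519 CPM in fry1-6 rdr1-1. It rose on both scales, by log2 fold changes of 2.28 ± 0.23 (SE, adjusted p = 0.00256) and 2.49 ± 0.23 (SE, adjusted p = 0.00338) within the plastid total. The other 3 lie in a cluster of their own. rpoB had 26 and 15.3 CPM in WT, 25 and 11.6 CPM in fry1-6, 16 and 14.2 CPM in fry1-6 rdr6-11 and 40.8 and 24.9 CPM in fry1-6 rdr1-1. rpoC1 had 15.4 and 8.27 CPM in WT, 15.2 and 6.43 CPM in fry1-6, 5.35 and 4.13 CPM in fry1-6 rdr6-11 and 13.9 and 7.35 CPM in fry1-6 rdr1-1. rpoC2 had 19.6 and 3.86 CPM in WT, 24.6 and 6.1 CPM in fry1-6, 9.13 and 8.04 CPM in fry1-6 rdr6-11 and 21.3 and 13.4 CPM in fry1-6 rdr1-1. These 3 overlapped between the groups and did not pass per library total, with log2 fold changes of -0.45, -1.31 and -0.44 in fry1-6 rdr6-11. The same values against WT were 0.67, -0.15 and 0.57 in fry1-6 rdr1-1. Relative to the plastid total all 3 fell, with log2 fold changes of -6.01 ± 0.57 (SE, adjusted p = 0.00226) and -5.34 ± 0.55 (SE, adjusted p = 0.00437) for rpoC1. clpP, the gene of a protease subunit, rose per library total by log2 fold changes of 3.88 ± 0.44 (SE, adjusted p = 0.0039) and 4.24 ± 0.45 (SE, adjusted p = 0.00478) and was near the middle of the plastid genes within the total, at -0.85 and -0.96, neither of which passed. ycf2 could not be tested.

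Among the RNA genes, most tested tRNAs rose per library total, and the tested rRNA rows fell within the plastid total. trnH had 0 counts in both WT libraries and 1 in each fry1-6 library, and 2505 and 1302 counts in fry1-6 rdr6-11 and 1611 and 1736 counts in fry1-6 rdr1-1. Against the floor of 3 counts per library in WT, its mean was at least 417-fold and 363-fold higher. trnT (ATCG00390) had 0 and 5 counts in WT, 1 and 6 counts in fry1-6, 4659 and 2953 counts in fry1-6 rdr6-11 and 4039 and 4415 counts in fry1-6 rdr1-1, and the intron-holding leucine gene next to it, trnL (ATCG00400), 11 and 10, 7 and 8, 6169 and 3335 and 4519 and 4893. All 3 had no overlap. Per library total 18 of 22 tested tRNA genes rose in each double mutant, and within the plastid total 6 and 2 rose and 3 fell. Only 6 of the 22 would have been tested on the WT and fry1-6 libraries alone, of which 3 rose per library total and 0 within the plastid total, and 15 of 37 were not tested. rrn16, the RNA of the small ribosomal subunit, had 569 and 77 counts in WT, 553 and 191 counts in fry1-6, 0 and 4 counts in fry1-6 rdr6-11 and 3 and 10 counts in fry1-6 rdr1-1 in its first copy, although plastid totals were higher in the double mutants. The copy at the other end had 700 and 96, 733 and 184, 6 and 4 and 8 and 3. Per library total it fell, with log2 fold changes of -6.94 ± 1.41 (SE, adjusted p = 0.0198) and -6.83 ± 1.40 (SE, adjusted p = 0.0343). rrn23, of the large subunit, had 1256 and 126 counts in WT, 1273 and 473 counts in fry1-6, 51 and 52 counts in fry1-6 rdr6-11 and 63 and 73 counts in fry1-6 rdr1-1 in its first copy, and it fell within the plastid total, with log2 fold changes of -8.30 ± 0.51 (SE, adjusted p = 0.000774) and -8.40 ± 0.51 (SE, adjusted p = 0.00093). All 4 tested rRNA rows fell within the plastid total in both, and rrn5 had no count in any library. The groups did not overlap in any of the 4.

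**Figure D4:**
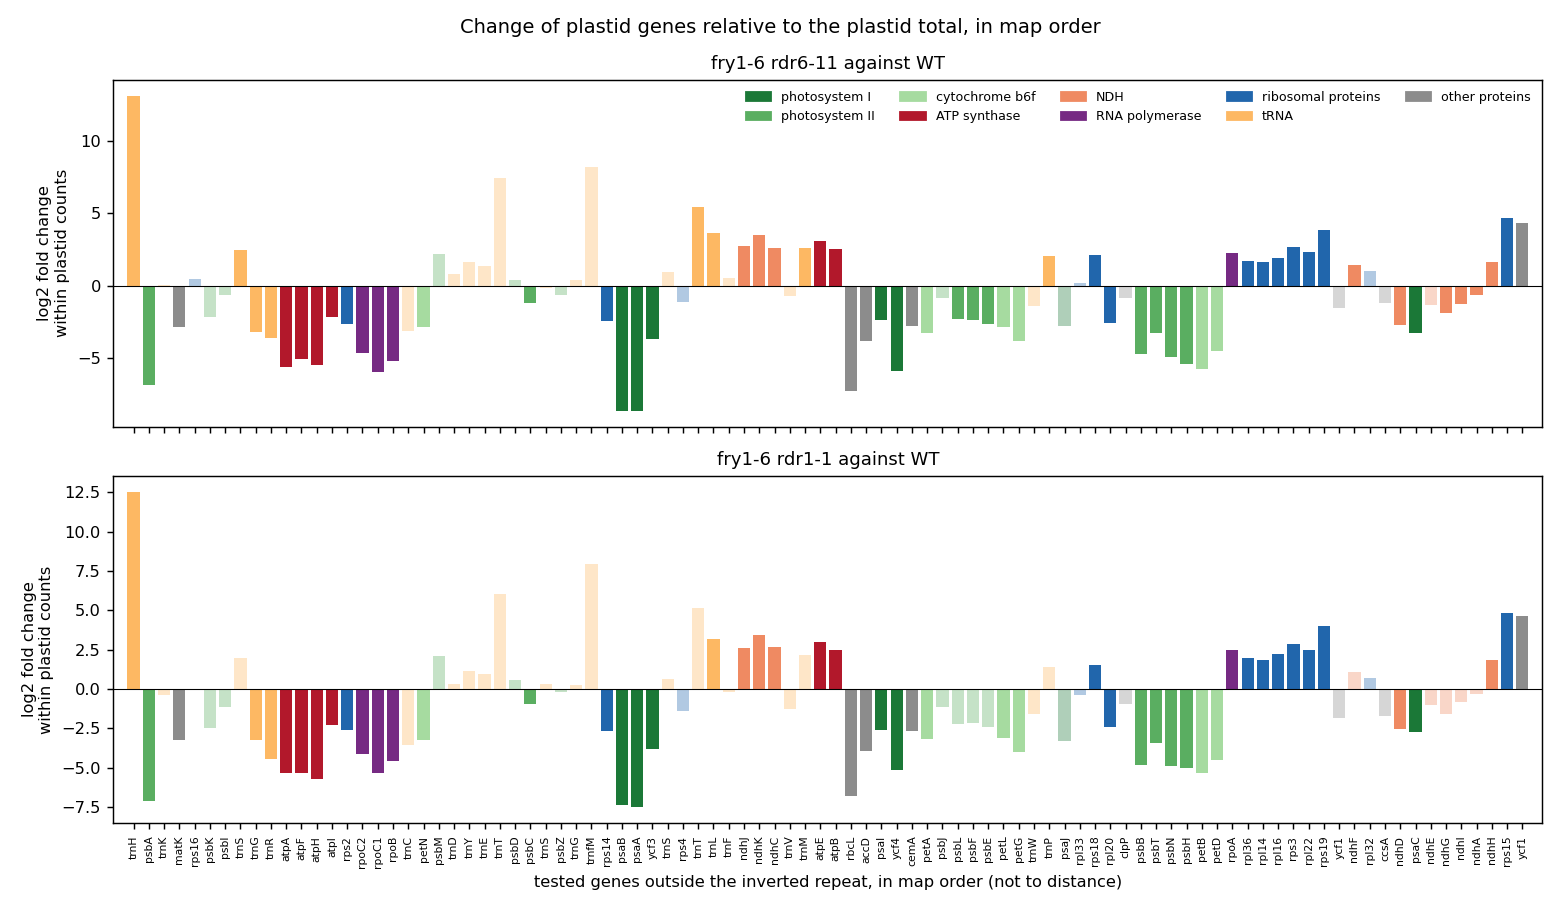
Bars give the log2 fold change of tested genes outside the inverted repeat relative to the plastid total, in map order from trnH, for fry1-6 rdr6-11 (top) and fry1-6 rdr1-1 (bottom) against WT, solid past the adjusted p of 0.05 and pale otherwise. Genes that rose or fell stand in blocks, such as the rpoA to rps19 block above 0 and the trnG to rpoB block below it.

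Neighbouring genes often shared a call. Called the same way in both double mutants against WT within the plastid total, tested genes in map order formed runs: 10 genes from rpoA to rpl2 rose (chrPltd:77901-85843), as did ndhJ, ndhK and ndhC, atpE with atpB, and ndhH, rps15 and ycf1. The 10 genes from trnG to rpoB fell (chrPltd:8646-26329), as did 6 from rbcL to petA, 6 from psbB to petD and 4 from rps14 to ycf3. Between neighbours the per-library log2 fold changes against WT differed by a median of 1.84 in fry1-6 rdr6-11 and 1.50 in fry1-6 rdr1-1 over 106 pairs, and by 3.68 and 3.53 over all pairs of the 107 located genes. For neighbours on the same strand (77 pairs) the medians were 1.36 and 1.09, and for those on opposite strands (29 pairs) 2.47 and 2.13. These are descriptions, since genes of 1 transcript share reads and are not replicates. The located genes include members that passed the filter only through the double mutants. The blocks held genes of different function: the psaA, psaB and rps14 cluster fell within the plastid total although rps14 encodes a ribosomal protein, and rpoA rose with ribosomal protein genes.

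Sequence composition was set beside the changes as a description. Over 73 protein-coding members outside the repeat, Spearman's rho with the mean within-plastid change of both double mutants was 0.44 for the A content of the coding strand, -0.25 for T, -0.28 for GC, 0.14 for the longest run of A and -0.18 for the length spanned. With the tRNA genes added (94 members) it was 0.17 for A and -0.06 for the run of A. The motif AAAAAA stood on the gene's own strand in 55 of 128 located genes (43.0%) and on the other strand in 53 (41.4%). On the minus strand 28 of 59 genes had a change above 0, with a median of -0.47, and on the plus strand 10 of 35, with a median of -2.47. These points share libraries and clusters, so no test was made of them. They include members that passed the filter only through the double mutants, where they were high, trnH and rps15 among them. The values therefore depend partly on the filter.

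Nuclear genes that act on plastid RNA were looked at beside the members. Of 21 genes of plastid transcription, all tested, 0 passed in fry1-6 against WT, 10 fell and 0 rose in fry1-6 rdr6-11, and 1 fell and 2 rose in fry1-6 rdr1-1, with list medians of -0.58 and -0.44 for the double mutants. Across all genes 5.42% were called in fry1-6, 10.9% rose and 7.94% fell in fry1-6 rdr6-11, and 5.91% rose and 2.07% fell in fry1-6 rdr1-1. RPOTp, the nuclear phage-type polymerase, had 89.9 and 70.0 CPM in WT, 63.1 and 54.6 CPM in fry1-6, 33.4 and 31.7 CPM in fry1-6 rdr6-11 and 28.9 and 42.4 CPM in fry1-6 rdr1-1. It fell, with log2 fold changes of -1.30 ± 0.23 (SE, adjusted p = 0.0127) and -1.16 ± 0.23 (SE, adjusted p = 0.0297) against WT. SIG5, a light- and stress-regulated sigma factor, had 13.7 and 12.1 CPM in WT, 33.5 and 30.8 CPM in fry1-6, 3.82 and 5.65 CPM in fry1-6 rdr6-11 and 47.7 and 26.4 CPM in fry1-6 rdr1-1. It fell in fry1-6 rdr6-11, at -1.45 ± 0.32 (SE, adjusted p = 0.0264), and rose in fry1-6 rdr1-1, at 1.52 ± 0.32 (SE, adjusted p = 0.0353), and the double mutants differed by -2.97 ± 0.33 (SE, adjusted p = 0.0256). No plastid gene passed the threshold between the double mutants, and whether the level of SIG5 bears on the plastid genes was not tested. Of 16 genes of plastid RNA processing and stability, 5 fell in fry1-6 rdr6-11, 1 in fry1-6 rdr1-1 and none rose, with medians of -0.56 and -0.50. In lists this short, the 1 or 2 calls in fry1-6 rdr1-1 are not read as an excess over all genes. CSP41A, an RNA-binding protein of the stroma, fell in both, with log2 fold changes of -1.28 ± 0.18 (SE, adjusted p = 0.00694) and -0.99 ± 0.18 (SE, adjusted p = 0.0241). Of the 4 nuclear rRNA rows, 3 rose in each double mutant against WT and 1 in fry1-6. The 18S row (AT2G01010) had 18.7 and 3.19 CPM in WT, 213 and 84.7 CPM in fry1-6, 103 and 131 CPM in fry1-6 rdr6-11 and 176 and 111 CPM in fry1-6 rdr1-1, lower in WT than in each mutant library. It rose by log2 fold changes of 3.42 ± 0.84 (SE, adjusted p = 0.034) and 3.72 ± 0.85 (SE, adjusted p = 0.0459), as did both 5.8S rows. Summed over the 4 rows the level was 597 to 6199 CPM in WT, 3982 to 11257 CPM in fry1-6 and 3105 to 4911 CPM in the double mutants.

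The double mutants shared their pattern, and their direct comparison asked whether loss of RDR6 or of RDR1 gave the larger values. Within the plastid total no member differed between them by edgeR or DESeq2, with 8 at an unadjusted p under 0.05 and 1.12% of all genes called in that fit. Among the 68 tested genes that took at least 0.1% of plastid counts on average, the 3 highest in fry1-6 rdr6-11 relative to fry1-6 rdr1-1 were trnH at 0.63 ± 0.25 (SE, adjusted p = 0.297), the second copy of rrn23 at 0.60 ± 0.43 (SE, adjusted p = 0.538) and trnV at 0.58 ± 0.49 (SE, adjusted p = 0.601). The 3 lowest were psaB at -1.31 ± 0.43 (SE, adjusted p = 0.207), psaA at -1.15 ± 0.47 (SE, adjusted p = 0.296) and the first copy of rrn16 at -1.12 ± 1.09 (SE, adjusted p = 0.653). Over all tested members the median was 0.10. A p that misses the threshold does not show that the genotypes are alike. Without WT replicate 2 and fry1-6 replicate 2, 5 members were lower in fry1-6 rdr6-11 per library total and 1 within the plastid total.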

How the data were processed

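RNA-seq of whole seedlings gave 8 libraries, 2 for each of 4 genotypes. The authors demultiplexed reads with CASAVA, aligned them with STAR 2.6 to the Araport11 annotation, allowing a read several positions and reporting 1, and counted them with featureCounts 1.6.4. The deposited values are raw read counts per gene, without normalization. The authors compared genotypes with DESeq2. The strand setting and any selection of RNA are not given in the sources used here.

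Samples were grouped by their titles, and 0 columns were left unmapped. Members and lists were chosen with earlier results of these data known. Genes were filtered with filterByExpr (minimum count 10, minimum total 15) and all 22744 that passed were fitted over the 8 libraries, with 4 residual degrees of freedom, by edgeR 4.0.16 (limma 3.58.1, R 4.3.3). Its quasi-likelihood test was used with TMM scaling and Benjamini-Hochberg adjustment over all of these genes, and an adjusted p under 0.05 was called. The common dispersion was 0.0727. In a second fit, plastid rows were scaled by the summed plastid counts of the library and other rows as before. The test was checked on simulated counts. Depth was 15069329 to 26285519 counts per library. Intervals (95%, Wilson) and the floor of 3 counts cover counting error only. Replicates of each genotype differed beyond sampling noise.

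Gene names came from RefSeq (TAIR10.1), paired by name and place for 128 of 134 identifiers, of which 115 had equal lengths. The named genes were the 2 with the highest mean CPM in each class, the 5 highest and 5 lowest by mean change within the plastid total against WT and the 3 highest and 3 lowest between the double mutants, both among genes with at least 0.1% of plastid counts, the polymerase genes, rbcL, accD, clpP, ycf1 and ycf2, and at most 6 listed nuclear genes that passed in both double mutants. Other genes, the cluster members, psbA, atpA and the printed petN, psaI and petG among them, were named after their values were seen. Alternatives were other scalings, filters and plastid totals, DESeq2 1.42.0, a fit of 2 genotypes, the replicate number as a block and leaving out each library. Figures used Python 3.11.15 and matplotlib 3.10.9. Values of 2 ribosomal protein genes are not reported here.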

Additional observations from a re-analysis of the deposited data

How the results depend on the processing

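Named genes kept the direction of their calls: of 2986 values of 179 calls under the alternatives, 2613 stayed past the threshold, 373 did not and 0 reversed. Counts are given in the order of the rdr6-11 and then the rdr1-1 double mutant against WT, followed by the same 2 against fry1-6. With at least 10 counts in every library, 53 members were tested and 32, 30, 28 and 22 were called per library total and 42, 38, 37 and 18 within the plastid total, since fewer genes were tested. Fitting only the 2 genotypes compared gave 28 calls per library total and 18 within the plastid total for fry1-6 rdr1-1 against WT, and 4 and 1 between the double mutants, for which the cause was not tested. DESeq2 called 77 and 65 for fry1-6 rdr1-1 against fry1-6. Without WT replicate 2 and fry1-6 replicate 2, a setting chosen after seeing the data, 91, 83, 89 and 60 were called per library total and 77, 72, 69 and 46 within the plastid total, and 5 and 1 between the double mutants.

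Leaving out 1 library gave 43 to 76, 37 to 69, 19 to 81 and 19 to 54 calls per library total and 36 to 70, 28 to 61, 4 to 67 and 8 to 47 within the plastid total. In fry1-6 against WT it gave 0 to 0 and 0 to 6, and between the double mutants 0 to 0 on both scales. With the replicate number as a block, 79, 72, 59 and 40 were called per library total and 69, 59, 54 and 24 within the plastid total. The deviations of same-numbered libraries from their genotype means, over all tested genes, were compared between genotypes. Their correlation was 0.75 between WT and fry1-6, -0.31 to -0.20 between these and the double mutants and 0.20 between the double mutants. No label ties a number to a shared culture. A block shared by all 4 genotypes was therefore not used, and whether the numbers pair WT with fry1-6 stays undecided; the block called 0 there on both scales. Low plastid counts in WT replicate 2 (5963) and fry1-6 replicate 2 (7897) limit the precision of low genes there.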
